A study of Sus scrofa with 13 samples.

Results

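Ovary-restricted long noncoding RNAs (lncRNAs) of the pig were examined in total RNA sequencing of 13 libraries. A lncRNA was taken as ovary-restricted when its RPKM (read count scaled by transcript length and library depth) was at least 1 in ovary, highest in ovary, and its tau was at least 0.9 over 9 organs at 240 days after birth. Tau is an index of restriction, with 1 for a lncRNA seen in a single organ and 0 for equal levels in all, and was computed on log2(RPKM + 0.1) counted up from the value of 0 RPKM. The members were thus selected on their measured RPKM in these 9 libraries, so their high ovary level and low level in the other 8 organs are a description and carry no test. The rule gave 120 of 10813 listed lncRNAs. They made up 15.3% of the 785 lncRNAs with at least 1 RPKM in ovary, and 478 of these 785 were highest in ovary.

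Guizhou mini-pigs gave 11 of the 13 libraries, each of 1 tissue. At day 240 these were ovary, testis, kidney, adipose tissue, heart, liver, lung and spleen, and longissimus dorsi, a skeletal muscle of the back, was taken at day 0, day 30 and day 240. The remaining 2 were a tissue mixture, made of multiple tissues, and a muscle mixture, made of longissimus dorsi, each from equal quantities of RNA of multiple breeds and ages. There was 1 library per tissue, stage or mixture, so no difference below has a replicate check and no test between libraries was possible. The number of animals behind each library and the tissues in the tissue mixture are not given in the sources used here. Muscle at day 0, muscle at day 30 and both mixtures were not used by the rule.

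In the ovary, oocytes lie in follicles, where granulosa cells surround them and theca cells form an outer layer. After ovulation the follicle wall becomes the corpus luteum, which makes progesterone from cholesterol. LncRNAs have no protein-coding potential, are often found at low levels, and are often limited to few tissues, with testis known for the largest number of them. The genes near these 120 lncRNAs and their functions were not analysed here, so their names are the identifiers of the transcript assembly.

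Markers of ovarian cells were present in the ovary library, as far as their symbols matched a listed identifier, but not all were highest there. Of 5 matched theca and luteal cell markers, 2 were highest in ovary, CYP11A1 and SCARB1. CYP11A1, which makes pregnenolone from cholesterol, was at 638 RPKM in ovary, 94.2 RPKM in testis and at most 0.0237 RPKM in the other organs. INSL3, a hormone of theca and Leydig cells, was at 99.1 RPKM in ovary and 1229 RPKM in testis, and LHCGR, the receptor of luteinizing hormone, at 16.2 and 19.9 RPKM. NR5A2, a nuclear receptor of granulosa and luteal cells, was at 38.0 RPKM, FSHR, the receptor of follicle-stimulating hormone, at 3.26 RPKM, and INHA, the inhibin alpha subunit, at 9.70 RPKM, and all 3 matched granulosa cell markers were highest in ovary. Of 8 matched oocyte markers, 6 were highest in ovary, among them the zona pellucida genes ZP3 at 2.43 RPKM and ZP4 at 3.40 RPKM and the oocyte growth factor BMP15 at 1.98 RPKM, whereas FIGLA was at 0 and ZAR1 was at 0.0346 RPKM in ovary and 0.584 RPKM in testis. Of 4 matched markers of ovarian stroma and surface, 3 were highest in ovary, and WT1 was at 4.69 RPKM in ovary and 5.10 RPKM in spleen. The oviduct epithelium genes OVGP1 and FOXJ1 were at 0.251 RPKM and 0 RPKM. Of 4 smooth muscle markers only ACTA2, a smooth muscle actin, was highest in ovary, at 205 RPKM, while MYH11 was at 38.9 RPKM in ovary and 138 RPKM in spleen. The 7 matched markers listed for testis germ cells summed to 10.98 RPKM in ovary and 5926 RPKM in testis. Of these, PRM1, a sperm protamine, was at 4.52 RPKM and 3203 RPKM, and PRM2 was at 0 in ovary. DDX4, also in that list, was at 1.74 RPKM and 88.9 RPKM. It is a gene of oocytes as well, so its ovary value is not particular to testis germ cells. The only matched adipocyte marker, PLIN1, was at 0 in ovary and at 82.1 RPKM in adipose tissue. In such bulk RNA, fewer cells of a type and less RNA per cell cannot be told apart, for the markers and the lncRNAs alike.

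The reads behind each RPKM could be recovered, since every value is a whole multiple of the value of 1 read. The total in RPKM was 21685316 reads in ovary, the lowest of the 13 libraries, and reached 108337358 reads in the tissue mixture, the highest. Of these totals, 8241342 reads were counted on listed features in ovary, with a lowest count of 3620363 (muscle at day 30) and a highest of 32507470 (tissue mixture). RPKM summed over all features was highest in ovary, at 214285, and lowest in spleen, at 61672. With RPKM scaled by median ratios, which multiplied ovary by 0.369, 28 of the 120 members still passed the whole rule. With that scaling 115 members were still highest in ovary and 101 of them kept tau of at least 0.9. Most of the loss came at the 1 RPKM limit, as 28 members had a scaled ovary value of at least 1.

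In ovary most members lay close above the 1 RPKM limit of the rule. Their median was 1.62 RPKM (quartiles 1.23 and 2.43), with 6 members above 5 RPKM, 37 from 2 to 5 RPKM and 77 from 1 to 2 RPKM. The highest member ranked 46th among all lncRNAs in ovary. Together the members held 3799 of the 122815 lncRNA reads of the ovary library, or 3.09%, and 31 members held 50% of their summed RPKM. The median was 15 ovary reads per member, so counting error was large for most of them.

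The 5 highest members were TCONS_00310215, TCONS_00733785, TCONS_00341004, TCONS_00710666 and TCONS_00147832. TCONS_00310215 was at 9.63 RPKM in ovary (76 reads, exact Poisson 95% interval 7.59 to 12.1), at 0.285 RPKM in testis and at 0.227 RPKM in kidney, and at 0 in the other 10 libraries. TCONS_00733785 was at 9.07 RPKM in ovary (84 reads, 7.24 to 11.2), 0.186 RPKM in adipose tissue, 0.152 RPKM in liver, 0.111 RPKM in the muscle mixture and 0.0216 RPKM in the tissue mixture, and at 0 in the rest. TCONS_00341004 was at 8.34 RPKM in ovary (171 reads, 7.14 to 9.69), 0.219 RPKM in testis, 0.0977 RPKM in the tissue mixture, 0.0648 RPKM in muscle at day 240 and 0.0168 RPKM in the muscle mixture. In each of these 3 lncRNAs ovary stood far above every other library, and the second library was testis, adipose tissue and testis in turn. TCONS_00710666 was at 8.12 RPKM in ovary (71 reads, 6.35 to 10.2), 0.205 RPKM in kidney, 0.0687 RPKM in the tissue mixture, 0.0671 RPKM in lung and 0.0657 RPKM in adipose tissue. TCONS_00147832 was at 7.105 RPKM in ovary (104 reads, 5.81 to 8.61), 0.353 RPKM in adipose tissue, 0.188 RPKM in the muscle mixture, 0.154 RPKM in testis and 0.0957 RPKM in the tissue mixture. The intervals of these 5 overlap, so their order in ovary is not settled by the counts. The Poisson intervals cover counting error only, not differences between animals or libraries.

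**Figure D1:**
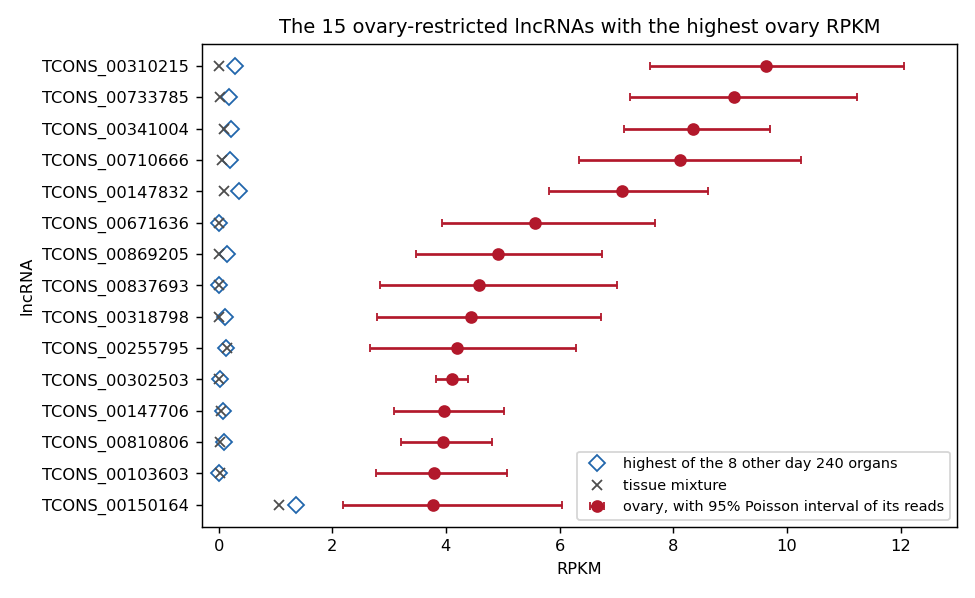
RPKM (x axis) of the 15 members with the highest ovary level (y axis), with ovary as red points and the exact Poisson 95% interval of its reads as bars, the highest of the 8 other day 240 organs as open diamonds and the tissue mixture as crosses. Ovary lies at 3.77 to 9.63 RPKM, and all diamonds and crosses lie at or under 0.353 RPKM except those of TCONS_00150164, at 1.37 and 1.07 RPKM.

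The next 10 members ranged from 5.58 RPKM down to 3.77 RPKM in ovary. TCONS_00671636 was at 5.58 RPKM in ovary (37 reads, 3.93 to 7.69) and at 0 in all other organs and both mixtures, with 0.401 RPKM in muscle at day 30. TCONS_00837693 was at 4.59 RPKM (21 reads, 2.84 to 7.02) and was above 0 in no other of the 13 libraries. TCONS_00103603 was at 3.79 RPKM (45 reads, 2.77 to 5.08), and its only other value was 0.0169 RPKM in the tissue mixture. These 3 were the only ones of the 15 highest at 0 in all 8 other organs. TCONS_00302503 had the most reads of all members, 852 on 9586 nt, for 4.10 RPKM (3.83 to 4.38). It was at 0.0169 RPKM in liver, 0.0115 RPKM in spleen, 0.00287 RPKM in kidney, 0.0027 RPKM in testis and 0.00331 RPKM in the muscle mixture, and at 0 in the tissue mixture. This is the member whose ovary level is known with the smallest counting error. Of the others, TCONS_00869205 was at 4.91 RPKM, TCONS_00318798 at 4.45 RPKM, TCONS_00255795 at 4.19 RPKM, TCONS_00147706 at 3.96 RPKM and TCONS_00810806 at 3.95 RPKM in ovary. Their values in the other organs were at most 0.148 RPKM, and the highest value outside the organs was 0.222 RPKM, of TCONS_00869205 in the muscle mixture. TCONS_00150164 closed the list at 3.77 RPKM in ovary (17 reads, 2.20 to 6.03), with 1.37 RPKM in testis (11 reads) and 1.07 RPKM in the tissue mixture (24 reads).

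Across the day 240 organs, 46 members were at 0 RPKM in all 8 other organs, 41 were above 0 in 1 other organ, 21 in 2, 9 in 3 and 3 in 4. The ovary level of the 46 ranged from 1.02 to 5.58 RPKM. The ovary value was 2.37 to 21.3 times the value of 3 reads in the organ with the highest such limit, before the counting error of ovary itself. For 43 of the 46, the lower limit of the ovary interval was above that value. For TCONS_00857091, with 5 ovary reads, it was 0.333 RPKM against 0.433 RPKM. Of the 46, 0 were above 0 in at least 4 libraries, so their lengths and reads are the smallest that give whole reads. The ratios of 2.37 to 21.3 are thus lower bounds, and the intervals are not exact. Over all members, the value of 3 reads had a median of 0.217 RPKM in testis and 0.272 RPKM in liver, the organs with the deepest and shallowest libraries apart from ovary. Of the 74 members above 0 in another organ, 36 rested on 3 reads or fewer in the organ with their second-highest value.

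**Figure D2:**
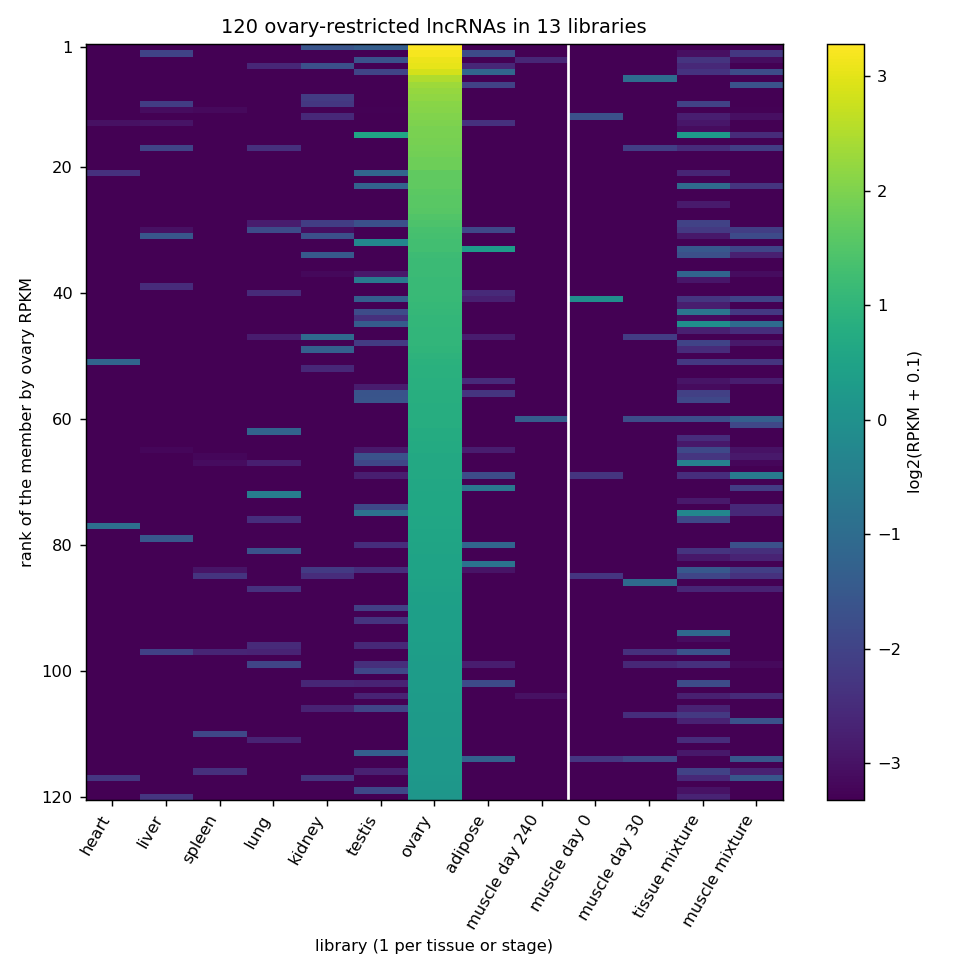
log2(RPKM + 0.1) of the 120 members (rows, ordered by ovary RPKM) in the 13 libraries (columns), with the 4 libraries that the rule did not use to the right of the white line. The ovary column is bright in every row by the rule, and the scattered lighter cells elsewhere are most frequent in the tissue mixture (63 members above 0), the muscle mixture (42) and testis (38).

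Testis was the organ where the members were most often seen outside ovary. In testis 38 members were above 0, beside 59.9% of all listed lncRNAs, and they held 173 reads there. In adipose tissue 21 members were above 0 (32.2% of all lncRNAs), in kidney 19 (35.4%), in lung 16 (36.6%) and in liver 12 (22.6%). In spleen 8 members were above 0 (23.8%), in heart 5 (20.3%) and in muscle at day 240 only 3 (15.3%). The rule favours lncRNAs at or near 0 in these 8 organs, so nothing is read from these shares. The second-highest organ was testis for 28 members, adipose tissue for 13, lung for 10, kidney and liver for 8 each, heart and spleen for 3 each and muscle at day 240 for 1. Testis was also the organ with the most listed lncRNAs above 0, so nothing is read from this order. The median second-highest value was 0.211 RPKM where it lay in testis and 0.188 RPKM where it lay in adipose tissue.

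The members with the highest value in another organ were TCONS_00150164, TCONS_00107625 and TCONS_00681611. TCONS_00150164 was at 1.37 RPKM in testis, as given above. TCONS_00107625 was at 2.32 RPKM in ovary (20 reads, 1.42 to 3.58), 1.13 RPKM in adipose tissue (17 reads), 0.255 RPKM in the tissue mixture and 0.159 RPKM in the muscle mixture. TCONS_00681611 was at 2.35 RPKM in ovary (18 reads, 1.39 to 3.72) and 0.734 RPKM in testis (10 reads), and at 0 in the other 11 libraries. In 41 of the 120 members, these 3 included, ovary was under 10 times the second organ, and 2 members reached 1 RPKM in another organ. Testis germ cell genes were above 0 in ovary, as given above for PRM1 (15 reads), and in other organs. PRM1 was at 1.45 RPKM in heart and 0.4 RPKM in muscle at day 240. TNP2 was at 1.40 RPKM in heart and 1.37 RPKM in ovary, and ACRBP at 0.774 RPKM in spleen and 0.625 RPKM in ovary. TNP1 and ODF1 were, like PRM1, higher in ovary than in the organs other than testis. DDX4 was too, but it is also a gene of oocytes. Steroid genes of the ovary were also high in testis. There CYP17A1, which turns progestins towards androgens, was at 548 RPKM beside 35.2 RPKM in ovary. Whether such shared RNA or shared cell types bear on the testis values of the members was not tested.

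Near the limits of the rule, membership turned on few reads. Just inside the tau limit were TCONS_00107625 with tau 0.901 and TCONS_00800004 with tau 0.902, the latter at 1.34 RPKM in ovary (9 reads) and 0.342 RPKM in adipose tissue. Just outside it were TCONS_00840570 with tau 0.899, at 2.09 RPKM in ovary (37 reads) and 0.349 RPKM in testis, and TCONS_00089818 with tau 0.897, at 1.94 RPKM in ovary (10 reads) and 1.09 RPKM in testis. Just inside the ovary limit were TCONS_00661525 at 1.01 RPKM (7 reads) and TCONS_00642583 at 1.02 RPKM (17 reads). Just outside it were TCONS_00542362 and TCONS_00662772, each at 0.996 RPKM (10 reads). The ovary values of these 8 lncRNAs rest on 7 to 37 reads.

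The rule used neither mixture, but the ovary value in each ratio below is the value that the rule selected to be high. The ratios are thus a description. So are the shares above 0, since the rule favours low values in organs that the tissue mixture may hold. In the tissue mixture 63 members, or 52.5%, were above 0, beside 60.9% of all listed lncRNAs. The same rule gave 1282 lncRNAs for testis and 79 for kidney, of which 38.2% and 89.9% were above 0 in the tissue mixture. For adipose tissue it was 52.6% of 19 lncRNAs, close to the members, and for spleen, lung, liver, heart and muscle at day 240 it was 75% to 94.7%. No member was higher in either mixture, or in muscle at day 0 or day 30, than in ovary. The median ratio of tissue mixture to ovary RPKM was 0.00801 over the 120 members, beside a median ratio to their own organ of 0 for testis-restricted and 0.0571 for kidney-restricted lncRNAs. Over the lncRNAs of the other 6 organs the median ratio ran from 0.0194 (adipose tissue) to 0.117 (muscle at day 240). With members at 0 set to the value of 3 reads, the medians were 0.0528 for ovary, 0.0254 for testis and 0.0612 for kidney. The other 665 lncRNAs with at least 1 RPKM in ovary had a median ratio of 0.427, and these were not selected for restriction. Above a ratio of 0.1 were 15.8% of the ovary-restricted, 2.81% of the testis-restricted and 32.9% of the kidney-restricted lncRNAs.

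**Figure D3:**
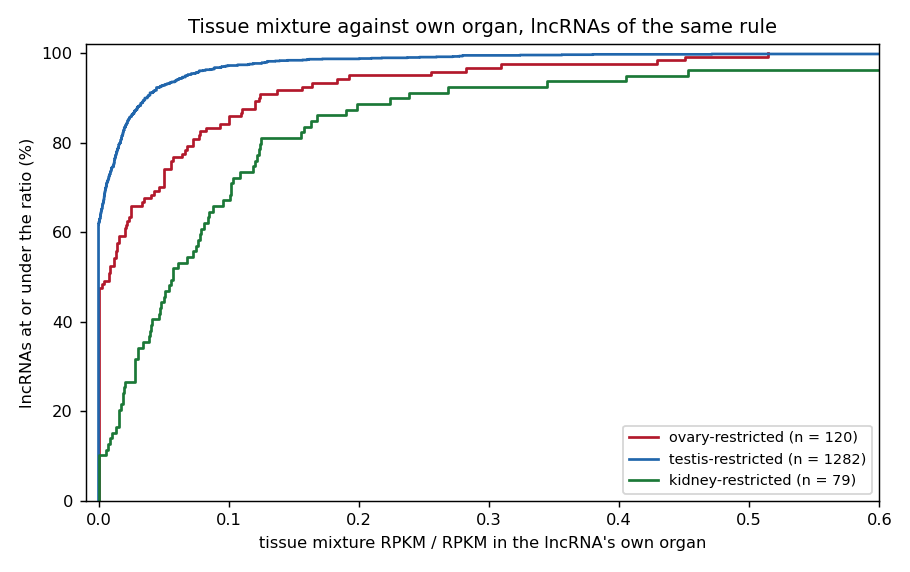
Cumulative share of lncRNAs (y axis, %) at or under a given ratio of tissue mixture RPKM to RPKM in their own organ (x axis), for lncRNAs that the same rule gives for ovary (n = 120), testis (n = 1282) and kidney (n = 79). The ovary curve runs between the testis curve, which starts highest, and the kidney curve up to the highest ovary ratio, 0.515. Beyond that it lies above both, and 3 testis-restricted and 3 kidney-restricted lncRNAs lie beyond the right edge at 0.6.

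Several markers of the gonads were low in the tissue mixture, and others were not. The 5 matched theca and luteal cell markers summed to 882 RPKM in ovary, 1898 RPKM in testis and 5.72 RPKM in the tissue mixture, of which SCARB1, a lipoprotein receptor found in many tissues, gave 5.51 RPKM. CYP11A1 was at 0.135 RPKM there and FSHR at 0.0045 RPKM. The 3 matched granulosa cell markers summed to 50.9 RPKM in ovary and 1.85 RPKM in the tissue mixture. The 7 markers listed for testis germ cells summed to 1.55 RPKM there. The 8 matched oocyte markers summed to 10.99 RPKM in ovary and 1.95 RPKM in the tissue mixture, of which GDF9, above 0 in every organ, gave 1.60 RPKM. The 4 markers of ovarian stroma and surface summed to 22.2 RPKM in ovary and 8.76 RPKM in the tissue mixture, with WT1 at 3.46 RPKM there. The 4 kidney markers summed to 265 RPKM in kidney and 49.0 RPKM in the tissue mixture. The part of the mixture's makeup in the members' values there was not tested.

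The 5 members highest in the tissue mixture were TCONS_00150164 at 1.07 RPKM, TCONS_00811157 at 0.884 RPKM, TCONS_00534693 at 0.732 RPKM, TCONS_00700558 at 0.636 RPKM and TCONS_00320703 at 0.513 RPKM. All 5 were also above 0 in testis, as were 59.9% of all listed lncRNAs. TCONS_00811157 was at 1.96 RPKM in ovary (12 reads, 1.01 to 3.43), 0.394 RPKM in the muscle mixture and 0.276 RPKM in testis. TCONS_00534693 was at 1.42 RPKM in ovary (7 reads, 0.569 to 2.93), 0.457 RPKM in testis and 0.0699 RPKM in the muscle mixture. TCONS_00700558 was at 1.48 RPKM in ovary (56 reads, 1.12 to 1.93), 0.164 RPKM in testis, 0.0466 RPKM in lung, 0.0158 RPKM in spleen and 0.00911 RPKM in the muscle mixture. It had 120 reads in the tissue mixture, more than in ovary, at a lower RPKM in the deeper library. TCONS_00320703 was at 2.005 RPKM in ovary (18 reads, 1.19 to 3.17), 0.188 RPKM in testis and 0.115 RPKM in the muscle mixture. Of the 38 members above 0 in testis, 76.3% were above 0 in the tissue mixture, against 41.5% of the 82 members at 0 in testis. Their median recovered lengths were 512 nt and 317 nt, where lengths are lower bounds for more of the latter, as 25 of the 38 and 20 of the 82 were above 0 in at least 4 libraries. Median ovary reads were 22 for the 38 and 14 for the 82. Of members with at least 20 ovary reads, 67.4% were above 0 in the tissue mixture, against 44.2% of those with fewer. The part of length and reads in the difference between the 38 and the 82 was not tested. The same split over all listed lncRNAs is not given here, so the difference is not read as particular to the members.

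**Figure D4:**
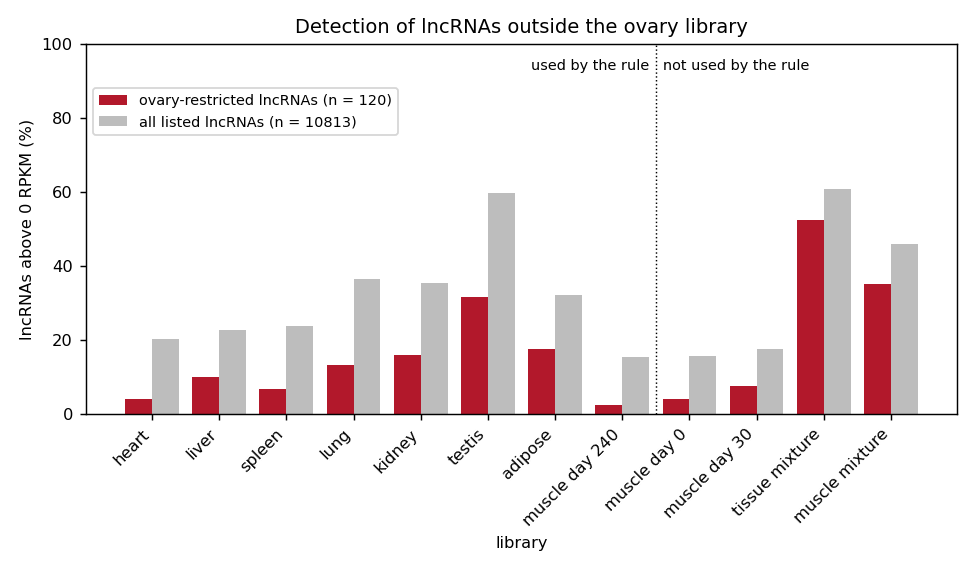
Share of the 120 members (red) and of all 10813 listed lncRNAs (grey) above 0 RPKM (y axis, %) in each library other than ovary (x axis), with the 8 organs used by the rule to the left of the dotted line. The red bar is under the grey bar in all 12 libraries, and in the 4 libraries not used by the rule it reads 4.17% in muscle at day 0, 7.5% at day 30, 35% in the muscle mixture and 52.5% in the tissue mixture.

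Few members were above 0 in the muscle libraries of a single stage. At day 0, 5 members were above 0 (15.5% of all lncRNAs), and at day 30 it was 9 members (17.6%). The rule favours low values in the same muscle at day 240, so nothing is read from these shares. They were 4.17% and 7.5% of the members. For lncRNAs that the same rule gives for organs other than muscle, they ran from 0% (spleen, lung) to 19.4% (heart) at day 0. At day 30 they ran from 0% (spleen) to 13.9% (kidney). Over day 0, day 30 and day 240, 15 members were above 0 at some stage, 2 of them at more than 1 stage and 0 at all 3. In the muscle mixture, which is deeper, 42 members (35%) were above 0, beside 45.9% of all lncRNAs. This mixture is of the same muscle, so nothing is read from that share either. The members highest in these muscle libraries were TCONS_00004499, TCONS_00220968, TCONS_00671636, TCONS_00811157 and TCONS_00810772. TCONS_00004499 was at 0.843 RPKM in muscle at day 0 (16 reads) and 2.08 RPKM in ovary (24 reads, 1.34 to 3.10), with 0.293 RPKM in testis, 0.149 RPKM in the muscle mixture, 0.104 RPKM in the tissue mixture and 0.0499 RPKM in adipose tissue. It was at 0 in muscle at day 30 and day 240. TCONS_00220968 was at 0.563 RPKM in the muscle mixture (40 reads) and 1.47 RPKM in ovary (36 reads, 1.03 to 2.04), with 0.188 RPKM in adipose tissue, 0.0993 RPKM in muscle at day 0, 0.0819 RPKM in the tissue mixture and 0.046 RPKM in testis. TCONS_00671636 and TCONS_00810772 were at 0.401 RPKM and 0.381 RPKM in muscle at day 30, values that rest on 3 reads and 2 reads, and neither was above 0 in any library other than this and ovary.

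Between the mixtures, 40 members had at least 0.1 RPKM in either and could be compared on log2(RPKM + 0.1). Of these 40, 17 were at least 2-fold higher in the tissue mixture, or 42.5%, beside 33.4% of the 4486 lncRNAs compared, and 9 were at least 2-fold higher in the muscle mixture, or 22.5%, beside 12.6%. The median difference was 0.64 over the members and 0.46 over all lncRNAs compared (log2, tissue mixture minus muscle mixture). In both directions the difference from the share over all lncRNAs was a few lncRNAs, with 1 library per mixture and no test. Nothing is thus read from these shares.

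The members were thinly covered. Their median recovered length was 358 nt, within the range of the lncRNAs that the same rule gives for the other 8 organs, from 311.5 nt (spleen) to 515 nt (kidney), and beside 593 nt for the other 665 lncRNAs with at least 1 RPKM in ovary. For 75 members above 0 in 1 to 3 libraries, length and reads are lower bounds. The 45 members detected in 4 or more libraries had a median of 493 nt, again within the range of the other organs, from 313 nt (adipose tissue) to 1007 nt (kidney), and beside 611 nt for the 647 other lncRNAs of ovary counted in the same way. The shortest members had 200 nt and 13 reached 1000 nt or more. Ovary reads per member ran from 5 to 852, with 43 members at 20 or more and 6 at 100 or more.

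When values under 3 reads in the other organs were raised to the value of 3 reads, 3 members still passed the rule, and they are named here after their values were seen. TCONS_00302503 (9586 nt) is described above. TCONS_00606800 (2816 nt) was at 2.18 RPKM in ovary (133 reads, 1.82 to 2.58), 0.341 RPKM in the tissue mixture (104 reads), 0.0368 RPKM in testis, 0.0169 RPKM in the muscle mixture and 0.00977 RPKM in kidney. TCONS_00579799 (4301 nt) was at 1.54 RPKM in ovary (144 reads, 1.302 to 1.82), 0.17 RPKM in the tissue mixture (79 reads), 0.0431 RPKM in adipose tissue, 0.0362 RPKM in testis, 0.0258 RPKM in the muscle mixture and 0.00754 RPKM in liver. These long lncRNAs are the members that kept a tau of at least 0.9 when values under 3 reads elsewhere were raised. Ovary and values of 3 reads or more stayed as measured, so their counting error is not in this check. The other 117 did not keep such a tau at the recovered lengths. These lengths are lower bounds for 75 members, so the value of 3 reads may be lower for them.

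Identifiers next to each other were few among the members. A listed lncRNA with an adjacent number existed for 18 members, or 15%, beside 30.7% of all lncRNAs, and no run of 3 members was found. In 3 pairs both lncRNAs were members, and the pairs were looked up after the values were seen. TCONS_00579799 and TCONS_00579800 were at 1.54 and 1.67 RPKM in ovary, and both were above 0 in testis, adipose tissue and the tissue mixture. TCONS_00031834 and TCONS_00031835 were at 1.48 and 1.41 RPKM in ovary, and TCONS_00857091 and TCONS_00857092 were at 1.02 and 1.64 RPKM in ovary and at 0 in the other 12 libraries. Of the 14 neighbours that were no members, 5 were highest in ovary, 3 were highest in testis and 4 were at 0 in all 9 organs. TCONS_00039996 was at 3.06 RPKM in ovary and 0.328 RPKM in testis, whereas TCONS_00039995 was at 0 in ovary and 0.852 RPKM in testis. TCONS_00546830 was at 1.14 RPKM in ovary and 0.0582 RPKM in testis, whereas TCONS_00546829 was at 0.104 RPKM in ovary and 1.89 RPKM in testis. An adjacent number is a name and does not show that a pair shares a locus.

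The same rule gave 82 Ensembl genes, or 0.731% of the 11223 Ensembl genes with at least 1 RPKM in ovary, beside 15.3% for lncRNAs. The 82 genes had a median of 72.5 ovary reads and a recovered length of 1220 nt, against 15 reads and 358 nt for the members. The part of reads and length in the difference between these shares was not tested. The median of the 82 genes was 2.95 RPKM in ovary, against 1.62 RPKM for the members. In the tissue mixture 89.0% of the 82 were above 0. The highest with a symbol were IBSP, an integrin-binding sialoprotein of bone matrix, at 194 RPKM, ADAMDEC1, a secreted metalloprotease-like protein, at 132 RPKM, MRO, maestro, at 32.7 RPKM, TGFA, a ligand of the epidermal growth factor receptor, at 23.2 RPKM, and IL1R2, a decoy receptor of interleukin 1, at 18.0 RPKM. TPH2, an enzyme of serotonin synthesis, was at 12.9 RPKM, ANO4 at 11.5 RPKM, TMEM74 at 10.8 RPKM, SNX31 at 10.6 RPKM and TMEM229A at 8.45 RPKM. Every member was thus lower in ovary than the 9 highest of these named genes, per length of transcript. FSHR and ZP4 were also among the 82.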

How the data were processed

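Per the labels, total RNA was depleted of ribosomal RNA and strand-specific libraries were made with a SMART or dUTP protocol, not named per library. The authors mapped reads with TopHat (1.3.2), assembled transcripts with Cufflinks, removed short, single-exon, annotated and coding transcripts, obtained counts with htseq-count and deposited them as 1 RPKM value per feature and library. The genome build of these libraries and the reads that make up the RPKM total are not given in the sources used here. Sequences and positions of the lncRNAs were not used here.

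Features (10813 lncRNAs and 21607 Ensembl genes) were read with pandas 2.3.3. A total per library and a length per feature that give whole reads (relative tolerance 1e-12) were found for all 29462 features above 0, and tested on simulated data. Lengths of lncRNAs were taken as at least 200 nt, the shortest of the 3237 above 0 in at least 6 libraries. Intervals are exact Poisson 95% intervals (scipy 1.17.1), and the limit of a count of 0 was set at 3 reads. Intervals and limits cover counting error only.

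The members and lists were chosen with earlier results of these data known. Members named were the 15 highest in ovary, the 5 highest in the tissue mixture, the 5 highest in the muscle mixture or muscle at day 0 or 30, the 3 highest in another organ, those next to each limit, and runs of adjacent identifiers. Of the Ensembl genes of the same rule, the 10 highest with a symbol were named. Symbols paired 11654 Ensembl identifiers. Markers with no paired identifier, such as CYP19A1, AMH, FOXL2 and STAR, have no value here.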

Additional observations from a re-analysis of the deposited data

How the results depend on the processing

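The number of ovary-restricted lncRNAs, 120 as reported, depended on the settings. It was 229 with an ovary limit of 0.5 RPKM, 43 with a limit of 2 RPKM and 72 with tau of at least 0.95. When the 9 organs were scaled to 1 common total it was 44, with scaling by median ratios 28, with values under 3 reads raised to 3 reads 3, and with at least 20 ovary reads 43. All lncRNAs left under these settings were among the 120, apart from those added by the limit of 0.5 RPKM. Other pseudocounts in tau gave 91 (0.01) and 180 (1), the rule without testis gave 159, of which 114 were shared, and the rule over 11 single-tissue libraries gave 135, of which 117 were shared. The 15 highest members passed under both scalings, but 8 of them with the pseudocount of 0.01. The count of members above 0 in the tissue mixture, 63, was 28 with a limit of 0.1 RPKM, 42 with at least 3 reads and 29 among the members with at least 20 ovary reads. The median ratio of tissue mixture to ovary, 0.00801, was 0.0103 after scaling to the same total and 0.0118 among members with at least 20 ovary reads. The members in no other organ, 46, were 64 with a limit of 0.1 RPKM and 69 with at least 3 reads. Depth limits the members: 77 of 120 had under 20 ovary reads, and with 1 library per organ the spread between animals is unknown. No paired analysis was possible because each group has 1 library.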

Other observations

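The highest value of any member in 6 further organs belonged to lncRNAs not named above, given here after their values were seen. TCONS_00070151 reached 0.601 RPKM in lung and TCONS_00832137 reached 0.425 RPKM in heart. In kidney it was TCONS_00049613 at 0.385 RPKM, in muscle at day 240 TCONS_00783782 at 0.288 RPKM, in liver TCONS_00863383 at 0.248 RPKM and in spleen TCONS_00600383 at 0.164 RPKM. In 31 of the 120 members ovary was the only library above 0 among all 13. The longest of these was TCONS_00252031, with 43 ovary reads and 1.19 RPKM over a recovered length of 1668 nt, and a length from a single library is a lower bound.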
